A study of Mus musculus with 16 samples.

Results

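Tuft cell genes, taken as Dclk1, Trpm5, Pou2f3, Il25, Avil, Sh2d6, Alox5ap, Rgs13, Ptgs1 and Gfi1b, were read out in mouse jejunal organoids with and without deletion of Hnf4a. The members were chosen by name, as the rows carrying these 10 gene symbols, and all 10 were present among the 20790 genes listed for day 2 and the 20658 listed for day 4. Poly(A) RNA was sequenced from organoids on a C57BL/6 background in 4 groups of 4 replicates. All 16 libraries came from organoids of the same genotype, Villin-CreERT2; Hnf4a flox/flox, in which a villin promoter drives a tamoxifen-inducible Cre recombinase in intestinal epithelium. The deleted groups had received 0.5 µM 4-hydroxytamoxifen (4OHT) for 24 h before splitting, the control groups the vehicle DMSO, and both were collected on day 2 and on day 4. Since no group lacks the recombinase or the floxed allele, effects of the compound, of Cre activity and of the deletion cannot be told apart. Nothing in the labels says whether replicates came from separate mice or cultures, so each p-value reflects only the scatter among the libraries compared, which may be technical.

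Tuft cells are rare chemosensory cells of the intestinal epithelium. The transcription factor Pou2f3 is required for them, and they sense luminal metabolites through taste-type G protein signalling that ends in opening of the cation channel Trpm5. They secrete the cytokine Il25, which acts on innate lymphoid cells, and they make leukotrienes and prostaglandins through Alox5ap and Ptgs1. Dclk1 is the kinase by which they are usually stained, and Avil, an actin-bundling protein of the villin family, belongs to their long apical tuft.

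Library totals ran from 63.8 M to 93.3 M listed counts. Hnf4a counts checked the labels: its level lay between 956 and 1046 CPM in the 8 DMSO libraries and between 454 and 532 CPM in the 8 4OHT libraries, with no overlap. CPM is the normalised read count, scaled to the listed counts of a library with TMM factors over all 16 libraries. Counts are per gene and do not show the floxed exons apart. Epithelial markers such as Epcam and Vil1 summed to between 3173 and 3841 CPM in every library, as the epithelial label has it. Of the 10 leukocyte and mast cell markers 7 were in a table, and Tyrobp and Cpa3 were in neither. The mean level of Ptprc was at most 0.0624 CPM in any group, and the summed list ran from 2.98 to 4.81 CPM over the 16 libraries. That sum includes Mcpt1 and markers not named here, and in every library it lay above the levels of Alox5ap and Ptgs1. Mcpt1 is a mast cell protease on that list. Its mean was 0.167 ± 0.037 CPM in DMSO and 1.70 ± 0.46 CPM in 4OHT (SD, n = 4) at day 2, and 0.0129 ± 0.0091 and 0.515 ± 0.292 CPM at day 4. On the log2 scale it was higher in 4OHT by 3.34 ± 0.24 (SE; edgeR adjusted p = 1.43e-06) and 5.19 ± 0.66 (edgeR adjusted p = 0.000433), the latter with the filter on low counts passed through the 4OHT libraries alone. Of the 4 list markers tested at day 2, Mcpt1 rose and 1 fell, where 16.9% of all genes rose and 14.3% fell. Of the 3 tested at day 4, Mcpt1 alone was called, where 24.7% of all genes were. Alox5ap, Ptgs1 and Rgs13 are also expressed by mast cells, and the part of such cells in their levels was not tested.

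Promoters are shown for Trpm5 and Rgs13, which rose together between the days, and for Avil, which was higher after 4OHT on both days. Each is the 250 bases before the annotated start on the gene's own strand, 5′ to 3′, from RefSeq promoter sequences of GRCm38.p6. Trpm5 is on the minus strand at chr7:143094643-143094892, Rgs13 on the minus strand at chr1:144177373-144177622 and Avil on the plus strand at chr10:127000459-127000708.
Trpm5: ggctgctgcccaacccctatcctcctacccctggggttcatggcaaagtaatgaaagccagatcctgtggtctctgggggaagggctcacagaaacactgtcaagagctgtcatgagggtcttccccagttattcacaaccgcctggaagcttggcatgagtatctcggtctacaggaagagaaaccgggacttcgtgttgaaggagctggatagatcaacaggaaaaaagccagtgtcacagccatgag
Rgs13: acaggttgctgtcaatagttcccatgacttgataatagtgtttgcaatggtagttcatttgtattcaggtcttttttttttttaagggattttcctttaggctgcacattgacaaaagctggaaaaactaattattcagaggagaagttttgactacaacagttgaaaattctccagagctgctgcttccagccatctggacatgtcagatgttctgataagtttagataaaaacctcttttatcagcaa
Avil: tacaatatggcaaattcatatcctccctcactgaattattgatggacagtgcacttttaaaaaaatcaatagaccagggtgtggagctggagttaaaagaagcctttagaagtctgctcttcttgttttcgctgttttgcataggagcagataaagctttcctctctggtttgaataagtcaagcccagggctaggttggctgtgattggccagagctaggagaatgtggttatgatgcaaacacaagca
RefSeq promoters were matched for 7 of the 10 members, 8 promoters in all. They were searched on both strands for the octamer ATGCAAAT, a motif bound by POU factors such as Pou2f3, and for CAAAGTCCA, the core of the motif bound by Hnf4a. None of the 8 promoters held either, against 1.6% and 0.384% of 32851 promoters of the same length. At shares this low, none among 8 is the likely outcome for any promoters, so it does not set these apart. GC content was 52.8% for Trpm5, 36% for Rgs13 and 42% for Avil.

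The members lie on 9 chromosomes of GRCm38 (GENCODE M21), all as protein-coding genes: Pou2f3 at chr9:43123939-43210369, Gfi1b at chr2:28609450-28621982, Trpm5 at chr7:143069153-143094642, Rgs13 at chr1:144138654-144177372 and Sh2d6 at chr6:72513641-72521707 on the minus strand, and Dclk1 at chr3:55242364-55539068, Avil at chr10:127000709-127020994, Alox5ap at chr5:149264767-149288153, Ptgs1 at chr2:36230426-36252272 and Il25 at chr14:54932695-54935837 on the plus strand. Exons of Trpm5 share 220 bases with Tssc4, those of Avil 165 with Tsfm, of Alox5ap 189 with Gm19719, of Ptgs1 148 with Gm43621 and of Dclk1 27 with Gm21954 and 87 with Gm42609, each on the opposite strand, and without a stated strand setting their reads cannot be told apart. Of these partners Tssc4 and Tsfm are in both tables and the others in neither.

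Every member was a low-abundance transcript, and the order of their levels differed between days. Levels between genes are compared as RPKM, the CPM divided by the length in kilobases of the union of annotated exons. In DMSO organoids at day 2 the highest means were those of Sh2d6, an SH2-domain adaptor, at 0.691 ± 0.079 RPKM (SD, n = 4), Rgs13, a regulator of G protein signalling, at 0.668 ± 0.145 RPKM, and Avil at 0.559 ± 0.113 RPKM. These neighbours did not differ beyond their spread, nor did Pou2f3 (0.459 ± 0.088 RPKM) from Trpm5 (0.442 ± 0.047 RPKM) or Ptgs1 (0.164 ± 0.024 RPKM) from Dclk1 (0.150 ± 0.017 RPKM). Alox5ap stood between these pairs at 0.262 ± 0.104 RPKM, and Gfi1b and Il25 were lowest, at 0.037 ± 0.015 and 0.022 ± 0.008 RPKM. The place of Dclk1 depends on its exon union, at 15296 bases the longest of the members. In CPM its mean was 2.29, against 0.638 for Ptgs1. By day 4 in DMSO, Pou2f3 led the order at 1.38 ± 0.04 RPKM, above Rgs13 at 1.10 ± 0.10 and Trpm5 at 1.01 ± 0.12 RPKM. Summed over the 10 genes, levels ran from 10 to 13.7 CPM in DMSO and from 11.8 to 16.3 CPM in 4OHT libraries at day 2, and from 17.7 to 24.4 CPM and from 18.5 to 30.1 CPM at day 4. The treatments overlapped on each day, and in each treatment every day 4 library lay above every day 2 library. A change in the number of tuft cells and a change in RNA per tuft cell cannot be told apart in these bulk libraries.

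**Figure D1:**
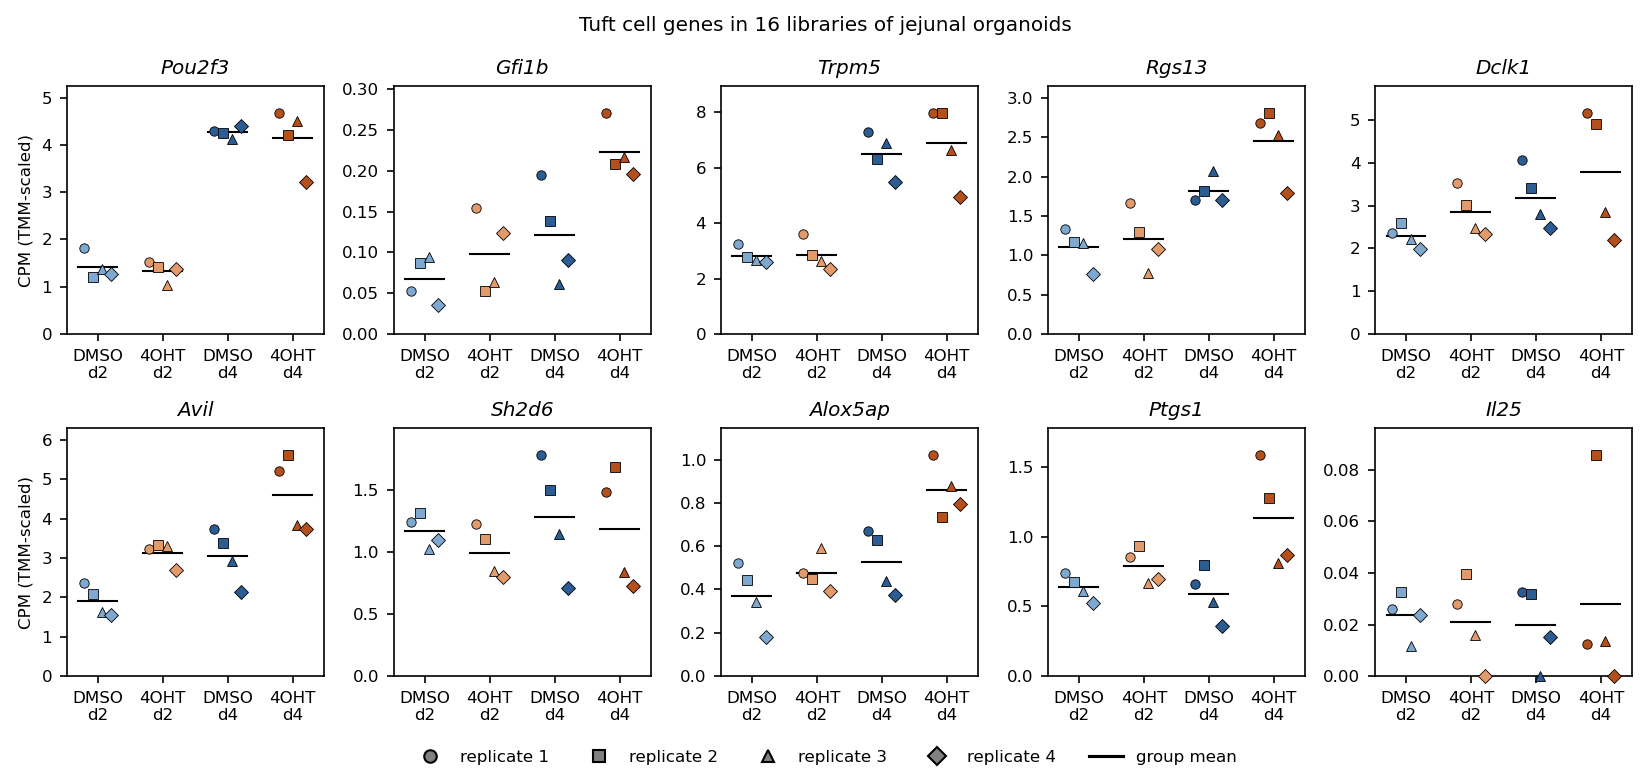
Levels of the 10 tuft cell genes in 16 libraries, as TMM-scaled CPM on the vertical axis and by treatment and day (d2, d4) on the horizontal axis. Each symbol is a library, its shape the replicate number, and bars are means of 4 libraries. Pou2f3, Trpm5 and Rgs13 at day 4 lie above all day 2 libraries of the same treatment, and Il25 stays below 0.09 CPM throughout.

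The largest differences of the tuft cell genes were between days, in control and deleted organoids alike. 5 tests were run per gene: 4OHT against DMSO at each day, day 4 against day 2 in each treatment, and the interaction of treatment and day. A gene was called at an adjusted p below 0.05 (edgeR quasi-likelihood test, Benjamini-Hochberg adjustment over all genes tested). A gene was tested where at least 4 libraries reached a cutoff of about 10 reads, and members and list genes are counted here where all 4 libraries of both groups did, since a gene that passed through its higher group alone had to differ. In DMSO organoids 5 of the 8 such members rose from day 2 to day 4 and none fell, where 53.5% of all 16088 genes were called, 28.7% rising and 24.8% falling. In 4OHT organoids 5 of 8 rose and none fell, where 49.4% of 15962 genes were called, 25.9% rising and 23.5% falling. Across these comparisons the median member difference was 0.63 (log2) in DMSO and 0.72 in 4OHT, against 0.03 and 0.01 for all genes tested. Il25 had too few reads to be tested in any comparison, and Gfi1b too few in DMSO over time and in the day 2 comparison. Where Gfi1b was tested it passed the filter on low counts through the 4OHT day 4 libraries alone, so its calls say nothing beyond that selection and it is left out of these counts. Markers of other epithelial cell types rose between days as well. Of the stem cell markers 5 of 5 rose in both treatments, their summed level going from between 1077 and 1190 CPM to between 2905 and 3251 CPM in DMSO. Of 6 enterocyte markers 5 rose and 1 fell in both, of 5 Paneth markers 3 rose in DMSO and 4 in 4OHT, and of 8 enteroendocrine markers 5 and 6 rose. Goblet markers did not share this: of 7, 3 fell in DMSO, and 2 rose and 2 fell in 4OHT. The part of these other cell types in the rises of the tuft cell genes was not tested.

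Pou2f3, the lineage factor, showed the largest rise over time. The DMSO libraries held 1.81, 1.22, 1.37 and 1.27 CPM at day 2 and 4.30, 4.26, 4.14 and 4.40 CPM at day 4. All 4 day 4 libraries lay close together and above every day 2 library, a separation seen, in either direction, for 48.6% of genes tested in DMSO and 45.9% in 4OHT. The log2 fold change was 1.61 ± 0.12 (SE; 3.06-fold, 95% interval 2.54 to 3.68; edgeR adjusted p = 3.7e-07). In 4OHT organoids Pou2f3 went from 1.53, 1.42, 1.04 and 1.38 CPM at day 2 to 4.69, 4.21, 4.51 and 3.23 CPM at day 4, again without overlap, by 1.63 ± 0.16 (log2; edgeR adjusted p = 1.88e-05). No treatment difference was detected for it. The 4OHT difference was -0.06 ± 0.15 at day 2 (edgeR adjusted p = 0.816; 95% interval of the fold 0.76 to 1.22) and -0.04 ± 0.12 at day 4 (edgeR adjusted p = 0.849; 0.81 to 1.17), on the log2 scale, and the groups overlapped on both days.

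Gfi1b, a transcriptional repressor that in the gut epithelium marks tuft cells and elsewhere acts in erythroid and megakaryocytic cells, was near the limit of counting. It had 3 to 8 reads per library in DMSO at day 2, 4 to 11 in 4OHT at day 2, 4 to 18 in DMSO at day 4 and 16 to 22 in 4OHT at day 4. At day 4 the DMSO libraries held 0.195, 0.138, 0.061 and 0.090 CPM and the 4OHT libraries 0.271, 0.209, 0.217 and 0.196 CPM, which did not overlap, as for 28.3% of genes tested at day 4, although the highest DMSO and lowest 4OHT values nearly met. The difference of 0.81 ± 0.32 (log2) missed the threshold (edgeR adjusted p = 0.0909). With the replicate number as a block it was 0.85 ± 0.29 and was called (edgeR adjusted p = 0.0369), but in none of the 4 blocked fits that left out a replicate number (edgeR adjusted p 0.0541 to 0.122). In 4OHT organoids the difference of Gfi1b between days was 1.15 ± 0.32 (log2; edgeR adjusted p = 0.0127). Gfi1b passed the filter on low counts through the 4OHT day 4 libraries alone. Neither this call nor the blocked call at day 4 says anything beyond that selection. Of the megakaryocyte and erythroid markers, Itga2b made up nearly all of the summed level, 0.38 to 0.61 CPM in DMSO and 0.60 to 0.95 CPM in 4OHT at day 4, and the part of such cells in Gfi1b was not tested.

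Trpm5, the channel that ends the chemosensory cascade, rose over time as Pou2f3 did. In DMSO it went from 3.26, 2.79, 2.66 and 2.59 CPM to 7.28, 6.32, 6.87 and 5.48 CPM. The day 4 libraries all lay above the day 2 libraries, by 1.22 ± 0.11 on the log2 scale (2.32-fold, 95% interval 1.97 to 2.74; edgeR adjusted p = 1.39e-06). In 4OHT it went from 3.60, 2.84, 2.64 and 2.33 CPM to 7.98, 7.98, 6.65 and 4.94 CPM. That rise was 1.28 ± 0.18 (log2; edgeR adjusted p = 0.000201), also without overlap. Between treatments Trpm5 differed by 0.02 ± 0.13 at day 2 (edgeR adjusted p = 0.921; 95% interval of the fold 0.83 to 1.24) and 0.09 ± 0.15 at day 4 (edgeR adjusted p = 0.724; 0.84 to 1.34), with overlapping groups.

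Rgs13, which shortens G protein signals, rose by 0.73 ± 0.16 in DMSO (edgeR adjusted p = 0.00163) and by 1.03 ± 0.22 in 4OHT (edgeR adjusted p = 0.00282), on the log2 scale, with no overlap between days. At day 2 it had 1.33, 1.17, 1.16 and 0.764 CPM in DMSO and 1.66, 1.3, 0.781 and 1.08 CPM in 4OHT. The groups overlapped, the treatment difference being 0.14 ± 0.22 (log2; edgeR adjusted p = 0.675). At day 4 the DMSO libraries held 1.71, 1.81, 2.07 and 1.70 CPM and the 4OHT libraries 2.68, 2.81, 2.53 and 1.79 CPM. Of the 4OHT libraries 3 lay above all DMSO libraries, while replicate 4 fell among them. The treatment difference was 0.43 ± 0.15 (log2; 1.35-fold, 95% interval 1.06 to 1.71) and missed the threshold (edgeR adjusted p = 0.0656), though it was called with the replicate block (edgeR adjusted p = 0.0135).

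Avil rose after 4OHT on both days, and was the 1 of 8 members tested that was called at day 2, where 31.1% of 15897 genes were called, 16.9% rising and 14.3% falling. At day 2 the DMSO libraries held 2.36, 2.07, 1.63 and 1.54 CPM and the 4OHT libraries 3.23, 3.33, 3.30 and 2.68 CPM. No 4OHT library overlapped with a DMSO library, as for 31.8% of genes tested, and the difference was 0.73 ± 0.13 (log2; 1.66-fold, 95% interval 1.35 to 2.03; edgeR adjusted p = 0.00165). At day 4 the values were 3.74, 3.39, 2.93 and 2.12 CPM in DMSO and 5.22, 5.63, 3.83 and 3.74 CPM in 4OHT. There the groups touched, with DMSO replicate 1 level with 4OHT replicate 4, while within each replicate number 4OHT was higher, 4 of 4. The day 4 difference was 0.59 ± 0.19 (log2; edgeR adjusted p = 0.0474). The authors' deposited table gave Avil an edgeR adjusted p of 1.3e-06 at day 2 and 0.014 at day 4, and a DESeq adjusted p of 6e-06 and 0.095. Avil also rose between days, by 0.71 ± 0.18 in DMSO (edgeR adjusted p = 0.00469) and 0.57 ± 0.15 in 4OHT (edgeR adjusted p = 0.0101). Tsfm, which shares exon bases with Avil, at a mean of 39.2 CPM, fell after 4OHT, by 0.17 ± 0.04 on the log2 scale at day 2 (edgeR adjusted p = 0.0121) and by 0.17 ± 0.04 at day 4 (edgeR adjusted p = 0.0192).

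Dclk1, the common tuft cell marker, differed less. Its day 2 levels were 2.36, 2.58, 2.23 and 1.98 CPM in DMSO and 3.54, 3.01, 2.47 and 2.35 CPM in 4OHT. Replicates 1 and 2 of 4OHT lay above all DMSO libraries and the others among them, and the difference of 0.32 ± 0.14 (log2; 95% interval of the fold 1.01 to 1.54) did not pass (edgeR adjusted p = 0.103). At day 4 the DMSO libraries held 4.06, 3.41, 2.80 and 2.48 CPM and the 4OHT libraries 5.18, 4.91, 2.86 and 2.21 CPM. The 4OHT group held both the highest and the lowest of the 8 values, and the difference was 0.25 ± 0.27 (log2; edgeR adjusted p = 0.558). In DMSO Dclk1 rose between days by 0.50 ± 0.15 (log2; edgeR adjusted p = 0.0122), with overlap. In the fit over all 16 libraries that call was lost (edgeR adjusted p = 0.0929). In 4OHT the difference between days was 0.43 ± 0.27 (edgeR adjusted p = 0.221).

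Sh2d6 was the member with the lowest treatment differences. It had 1.24, 1.31, 1.02 and 1.10 CPM in DMSO and 1.22, 1.10, 0.844 and 0.797 CPM in 4OHT at day 2, a difference of -0.23 ± 0.16 (log2; edgeR adjusted p = 0.295), and the groups overlapped. At day 4 it had 1.78, 1.5, 1.14 and 0.708 CPM in DMSO and 1.48, 1.68, 0.839 and 0.723 CPM in 4OHT. Both groups spread over more than a 2-fold range there, and the difference was -0.13 ± 0.33 (log2; edgeR adjusted p = 0.807; 95% interval of the fold 0.55 to 1.51). No change of Sh2d6 between days was called, at 0.17 ± 0.22 in DMSO and 0.27 ± 0.28 in 4OHT.

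At day 4 the treatment calls among tuft cell genes were Avil and both eicosanoid genes, 3 of the 8 members that passed the filter in both groups, all higher in 4OHT. Of all 16040 genes 24.7% were called, 13.7% rising and 11.1% falling. Ptgs1, the constitutive cyclooxygenase that makes the prostaglandin precursor, had 0.659, 0.799, 0.532 and 0.361 CPM in DMSO and 1.59, 1.28, 0.812 and 0.871 CPM in 4OHT. The lowest 4OHT library lay just above the highest DMSO library, and the difference was 0.93 ± 0.28 (log2; 1.91-fold, 95% interval 1.24 to 2.92; edgeR adjusted p = 0.0338). At day 2 Ptgs1 had 0.742, 0.673, 0.610 and 0.525 CPM in DMSO and 0.858, 0.934, 0.669 and 0.696 CPM in 4OHT, which overlapped, with a difference of 0.32 ± 0.16 (edgeR adjusted p = 0.155). Of the 8 members tested over time in DMSO it was the 1 with a difference below 0, at -0.07 ± 0.22 (log2; edgeR adjusted p = 0.808), and in 4OHT it differed by 0.54 ± 0.23 (edgeR adjusted p = 0.0748).

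Alox5ap, the protein that presents arachidonic acid to 5-lipoxygenase for leukotriene synthesis, had 0.670, 0.628, 0.441 and 0.376 CPM in DMSO and 1.02, 0.737, 0.880 and 0.797 CPM in 4OHT at day 4. The groups did not overlap, and the difference was 0.68 ± 0.21 (log2; 1.60-fold, 95% interval 1.16 to 2.20; edgeR adjusted p = 0.0374). At day 2 it had 0.521, 0.445, 0.340 and 0.179 CPM in DMSO and 0.478, 0.447, 0.589 and 0.393 CPM in 4OHT, a difference of 0.36 ± 0.27 (edgeR adjusted p = 0.343). In 4OHT organoids it rose between days by 0.87 ± 0.18 (log2; edgeR adjusted p = 0.00218), and in DMSO it differed by 0.56 ± 0.28 (edgeR adjusted p = 0.115). The authors' deposited table gave an edgeR adjusted p of 0.015 for Alox5ap and 0.004 for Ptgs1 at day 4, and a DESeq adjusted p of 0.092 and 0.078. Mcpt1 was higher in 4OHT on both days as well (values above), and its part in the calls of Alox5ap and Ptgs1 was not tested. The 2 leukocyte and mast cell markers that passed the filter in both groups at day 4 were not called (median difference 0.05, log2).

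In the unpaired fit each of these day 4 calls was lost when any of several libraries was left out. The levels of all of these genes stayed higher in 4OHT in every such fit. In the paired fit the calls held when a replicate number was left out. Avil missed the threshold without any of DMSO replicates 2, 3 and 4 and 4OHT replicates 1, 2 and 3 (edgeR adjusted p up to 0.106), Alox5ap without DMSO replicate 3 or 4 or 4OHT replicate 1 or 3 (up to 0.0953), and Ptgs1 without DMSO replicate 1, 3 or 4 or 4OHT replicate 1 or 2 (up to 0.0856). Libraries of the same number deviated together at day 4, with correlations of 0.639 to 0.807 over 9780 genes. With the number as a block, 4 of the 8 members that passed in both groups were called, Rgs13 being added, all higher in 4OHT, where 45.0% of all genes were called, 22.8% rising and 22.2% falling. The block gave Avil 0.60 ± 0.09 (log2; edgeR adjusted p = 0.000369), Ptgs1 0.95 ± 0.16 (edgeR adjusted p = 0.000821) and Alox5ap 0.69 ± 0.18 (edgeR adjusted p = 0.00866). Avil, Alox5ap and Ptgs1 passed in each of the 4 blocked fits that left out a replicate number. Rgs13 passed without number 3 or 4, and Dclk1 was called without number 4 (0.34 log2; edgeR adjusted p = 0.00779) but not with all numbers (0.22 ± 0.11; edgeR adjusted p = 0.142).

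**Figure D2:**
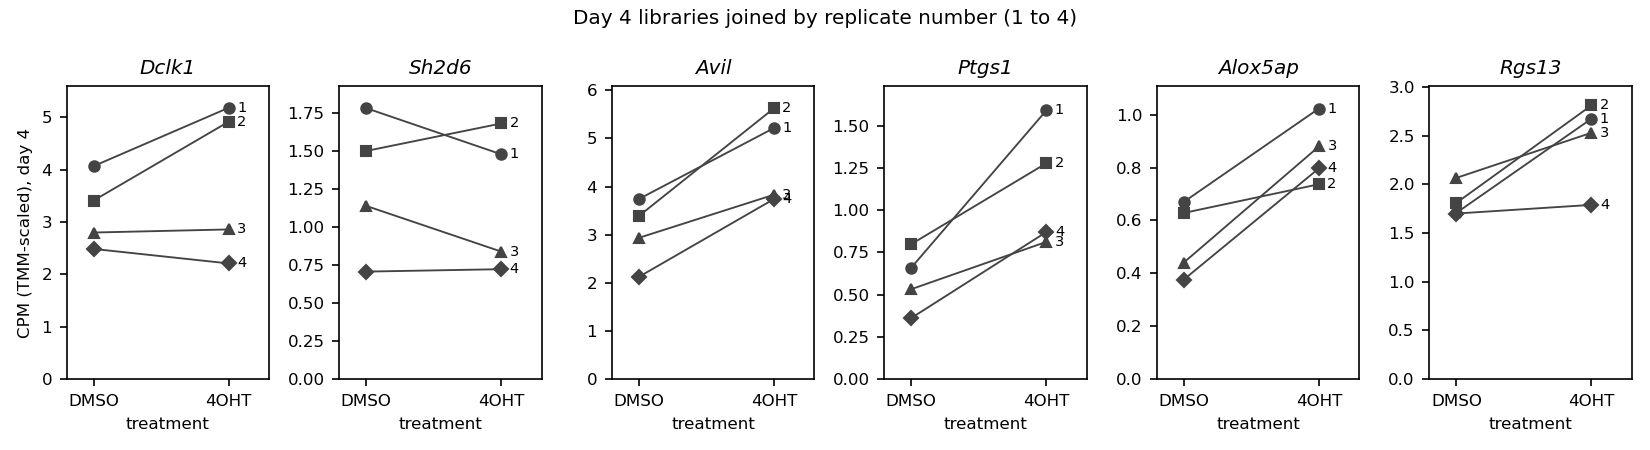
Levels of 6 tuft cell genes at day 4 as TMM-scaled CPM, DMSO on the left and 4OHT on the right of each panel, with libraries of the same replicate number (1 to 4) joined. Avil, Ptgs1, Alox5ap and Rgs13 are higher in 4OHT along all 4 lines, Dclk1 along 3 and Sh2d6 along 2.

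Il25, the cytokine output of tuft cells, was barely detected. Reads per library were 2, 3, 1 and 2 in DMSO and 2, 3, 1 and 0 in 4OHT at day 2, and 3, 3, 0 and 1 in DMSO and 1, 7, 1 and 0 in 4OHT at day 4. Group sums were 8 reads (exact Poisson 95% interval 3.45 to 15.8), 6 (2.2 to 13.1), 7 (2.81 to 14.4) and 9 (4.12 to 17.1) in the same order. The intervals overlap widely and cover counting error only, so no difference was detectable at this depth.

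The treatment difference itself did not pass a test of change between days for any of the 9 members tested in the interaction fit, where 1.68% of 16597 genes were called. Ptgs1 had the largest interaction, 0.62 ± 0.33 (log2; edgeR adjusted p = 0.351), from the values at each day given above. At an unadjusted p below 0.05 no member passed, none was called by DESeq2, and none with a replicate block within day, where 11.1% of genes were called and Ptgs1 had an adjusted p of 0.0747.

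**Figure D3:**
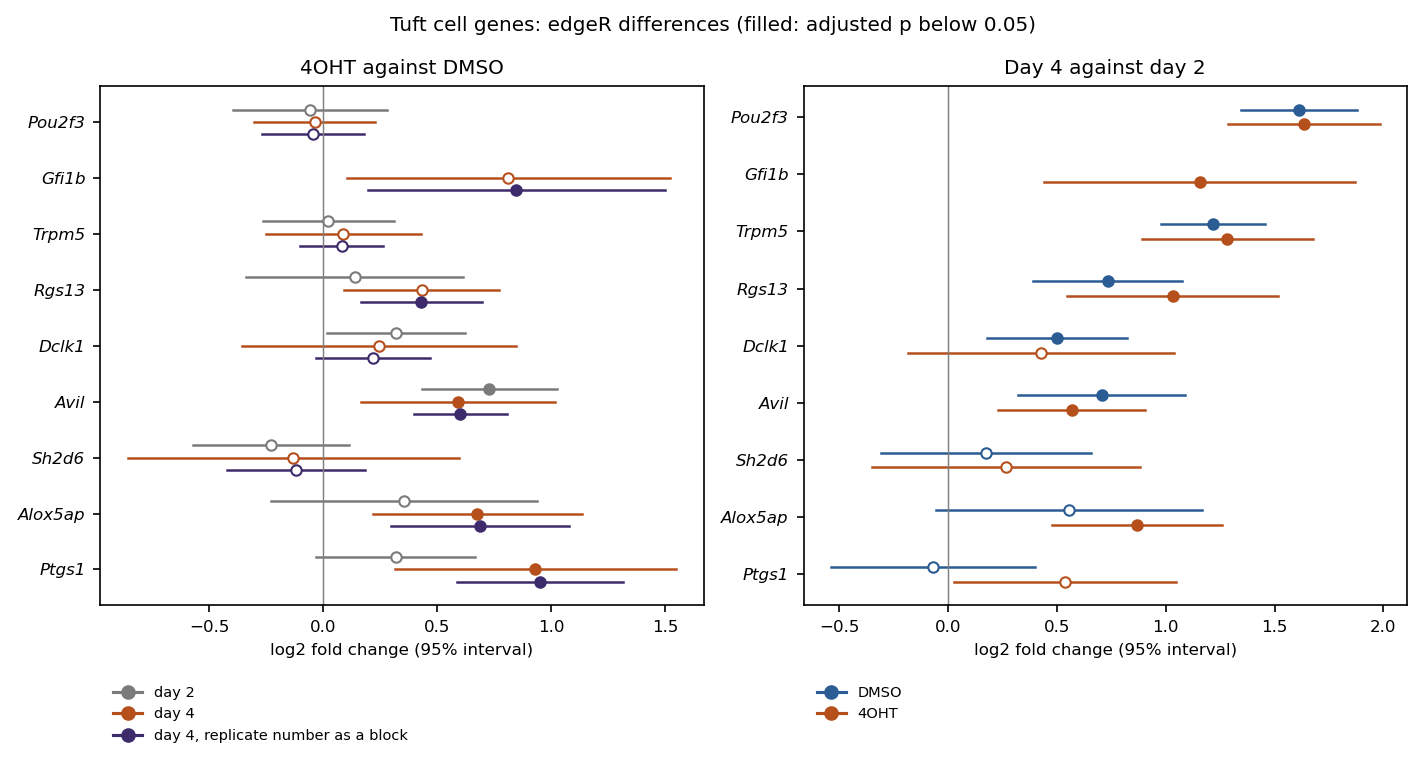
Log2 fold changes of the 9 tuft cell genes tested, with 95% intervals, for 4OHT against DMSO (left) and day 4 against day 2 (right). Filled points have an edgeR adjusted p below 0.05. Pou2f3 and Trpm5 lie near 0 on the left and highest on the right in DMSO, whereas Ptgs1 is highest at day 4 on the left.

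Replicates within a group differed in the same way for several tuft cell genes, a pattern noticed after the values were seen. Dclk1, Sh2d6 and Ptgs1 had higher levels in replicates 1 and 2 than in replicates 3 and 4 in all 4 groups, 3 of 9 members, where 1.81% of 16597 genes did so. In both day 4 groups 4 members did, Avil being added, where 15.5% of genes did. The summed level of goblet cell markers, among them Muc2, Clca1 and Fcgbp, moved along with them. It was 5696, 5667, 5161 and 4851 CPM in replicates 1 to 4 of DMSO and 9494, 9120, 8008 and 7410 CPM of 4OHT at day 2. At day 4 it was 5164, 4786, 4154 and 3923 CPM and 9219, 8704, 7315 and 7294 CPM. In DMSO at day 2 Fcgbp had a mean of 2523 CPM, against 5344 CPM for the sum. Clca1 ran only from 461 to 499 CPM there, so the sum does not show that each marker followed it. In the goblet sum replicates 1 and 2 were the higher pair in each group. The summed enteroendocrine markers had the same order except in DMSO at day 4, where replicate 3 (338 CPM) lay above replicate 2 (332 CPM). With 4OHT, 6 of 7 goblet markers rose at day 2 and 5 of 7 at day 4, and none fell. Of all genes, 16.9% rose and 14.3% fell at day 2, and 13.7% and 11.1% at day 4. Stem cell markers such as Lgr5 fell in 5 of 5 on both days, of 6 enterocyte markers 5 fell at day 2 and 1 rose at day 4, of 5 Paneth markers 3 fell at day 2 and 2 at day 4, and of 8 enteroendocrine markers 1 fell at day 2 and none was called at day 4. With the block at day 4, where 22.8% of all genes rose and 22.2% fell, 7 of 7 goblet markers rose, 1 Paneth marker rose and 2 fell, and 1 enteroendocrine marker fell. Their part in the tuft gene differences was not tested.

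Other genes of the tuft programme were read in 5 lists of 53 genes by role, of which 38 passed the filter in both groups at day 2 and 40 at day 4. At day 2, 8 rose (Gnat3, below, not counted) and 6 fell after 4OHT, with 16.9% of all genes rising and 14.3% falling. At day 4, 7 of 40 rose and 2 fell, with 13.7% and 11.1% of all genes, and with the replicate block 12 rose and 5 fell, with 22.8% and 22.2%. Median differences were 0.02 and 0.16 (log2) against -0.00 and -0.01 for all genes tested. Between days in DMSO, 19 of 38 rose and 9 fell, with 28.7% and 24.8% of all genes, and in 4OHT, 20 of 40 rose and 6 fell, with 25.9% and 23.5%. Many list genes, such as Krt18 at a mean of 1467 CPM in DMSO at day 2, Itpr3 at 307 CPM and Cd24a at 292 CPM, are expressed by most epithelial cells, so their sums say little of tuft cells.

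In the chemosensory list, 2 of the 4 genes that passed in both groups rose at day 2 and none fell, with 16.9% and 14.3% of all genes. The calcium release channels Itpr2 and Itpr3 rose by 1.02 ± 0.08 and 0.26 ± 0.06 (edgeR adjusted p = 2.9e-06 and 0.00484). Gnat3, the taste G protein gustducin, passed the filter through the 4OHT libraries alone, at a mean of 0.234 ± 0.051 CPM against 0.104 ± 0.020 CPM in DMSO (SD, n = 4), a difference of 1.17 ± 0.26 (log2). At day 4, 2 of 6 rose, with 13.7% of all genes. These were Itpr2 by 0.44 ± 0.09 (edgeR adjusted p = 0.00626) and Itpr3 by 0.16 ± 0.05 (edgeR adjusted p = 0.0466), while Gnat3 had 0.51 ± 0.25 (edgeR adjusted p = 0.165). With the block 3 of 6 rose, with 22.8% of all genes. Plcb2, the phospholipase of the taste cascade, was added (0.49 ± 0.16; edgeR adjusted p = 0.0282). The treatment difference of Itpr2 was smaller at day 4, by -0.57 ± 0.13 (edgeR adjusted p = 0.0281), the 1 list gene called in the interaction. Between days in DMSO 3 of 4 rose, among them Plcb2 by 0.97 ± 0.22, and 1 fell, with 28.7% and 24.8% of all genes. Gnat3 and Gng13, the gamma subunit of the cascade, passed there through the day 4 libraries alone, with differences of 1.64 ± 0.26 and 1.14 ± 0.31. Plcb2 and Gng13 are named here after their values were seen.

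In the eicosanoid list, 2 of the 6 genes tested at day 2 fell and none rose, with 14.3% and 16.9% of all genes. The falls were those of Ltc4s, the leukotriene C4 synthase, by -0.42 ± 0.12 (log2; edgeR adjusted p = 0.0165), and Lta4h, which makes leukotriene B4, by -0.23 ± 0.04 (edgeR adjusted p = 0.00156). At day 4, 1 of 6 rose, with 13.7% of all genes. It was the phospholipase Pla2g4a that releases arachidonic acid, by 0.20 ± 0.06 (edgeR adjusted p = 0.0305). With the replicate block 2 rose and 2 fell, with 22.8% and 22.2% of all genes. Alox5, the lipoxygenase that Alox5ap serves, was added to the rises (0.50 ± 0.16; edgeR adjusted p = 0.0277, against 0.165 without the block). Lta4h (-0.09 ± 0.03; edgeR adjusted p = 0.0275) and the thromboxane synthase Tbxas1 (-0.52 ± 0.17; edgeR adjusted p = 0.0257) fell. Between days in DMSO 3 of 6 rose and 1 fell, with 28.7% and 24.8% of all genes. Among the rises were the prostaglandin D synthase Hpgds by 1.88 ± 0.19 and Tbxas1 by 1.77 ± 0.18, Hpgds being named after its values were seen. Chat, which makes acetylcholine in tuft cells, was too low to test, with a group mean of at most 0.117 CPM.

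Among lineage regulators, Runx1 rose and Sox4 fell on both days, and the other 3 of the 5 that passed in both groups were not called. Of all genes, 16.9% rose and 14.3% fell at day 2, and 13.7% and 11.1% at day 4. Runx1 rose by 0.66 ± 0.07 at day 2 (log2; edgeR adjusted p = 4.47e-05) and 0.47 ± 0.05 at day 4 (edgeR adjusted p = 0.000272). Sox4, which drives secretory progenitors towards tuft fate, fell by 0.58 ± 0.06 on the log2 scale at day 2 (edgeR adjusted p = 1.13e-05) and by 0.30 ± 0.05 at day 4 (edgeR adjusted p = 0.00238). Between days in DMSO 4 of 5 rose, with 28.7% of all genes. Among them were Sox4 by 0.80 ± 0.06 and Atoh1, the secretory lineage factor, by 0.39 ± 0.06. Of the cytokine list, Il13ra1, a receptor chain through which Il13 expands tuft cells, rose by 0.40 ± 0.05 at day 2 (edgeR adjusted p = 5.65e-05) and 0.51 ± 0.12 at day 4 (edgeR adjusted p = 0.0123). At day 2 the alarmin Il33 rose by 0.71 ± 0.12 (edgeR adjusted p = 0.000773) and Il17rb, a chain of the Il25 receptor, fell by 0.60 ± 0.12 (edgeR adjusted p = 0.00266). With the block at day 4, Il33 rose as well (0.55 ± 0.11; edgeR adjusted p = 0.00183) and Il17rb fell (-0.37 ± 0.10; edgeR adjusted p = 0.00877). Stat6, which carries the Il13 signal, had -0.05 ± 0.04 and -0.03 ± 0.05 (edgeR adjusted p = 0.381 and 0.682).

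Of the 17 other tuft markers that passed in both groups, 3 rose and 2 fell at day 2, with 16.9% and 14.3% of all genes, and 2 rose and 1 fell at day 4, with 13.7% and 11.1%. The replicate block added rises of Krt23 (0.29 ± 0.06; edgeR adjusted p = 0.0065) and Ptpn6, a phosphatase (0.21 ± 0.04; edgeR adjusted p = 0.00229), at day 4. Tspan6, a tetraspanin, rose most, from 4.57 ± 0.44 to 13.4 ± 0.9 CPM (SD, n = 4) at day 2, by 1.56 ± 0.08 (log2; edgeR adjusted p = 1.16e-07), and by 1.69 ± 0.28 at day 4 (edgeR adjusted p = 0.0019). The keratins Krt18 and Krt23 rose at day 2 by 0.46 ± 0.06 and 0.33 ± 0.08 (edgeR adjusted p = 0.000235 and 0.0103), and Krt18 by 0.33 ± 0.08 at day 4 (edgeR adjusted p = 0.0151). Cd24a fell by 0.23 ± 0.05 and 0.27 ± 0.05 on the log2 scale on the respective days (edgeR adjusted p = 0.00287 and 0.00353), and Espn, an actin bundler, fell by 0.30 ± 0.08 at day 2 (edgeR adjusted p = 0.0104). Markers that are more restricted to tuft and blood cells, such as Lrmp, Vav1, Matk and Fyb, were not called in either treatment comparison. Between days in DMSO 8 of 17 rose, including Lrmp by 1.01 ± 0.13 and Vav1 by 0.94 ± 0.17, and 4 fell, including Tspan6 by 1.62 ± 0.14.

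**Figure D4:**
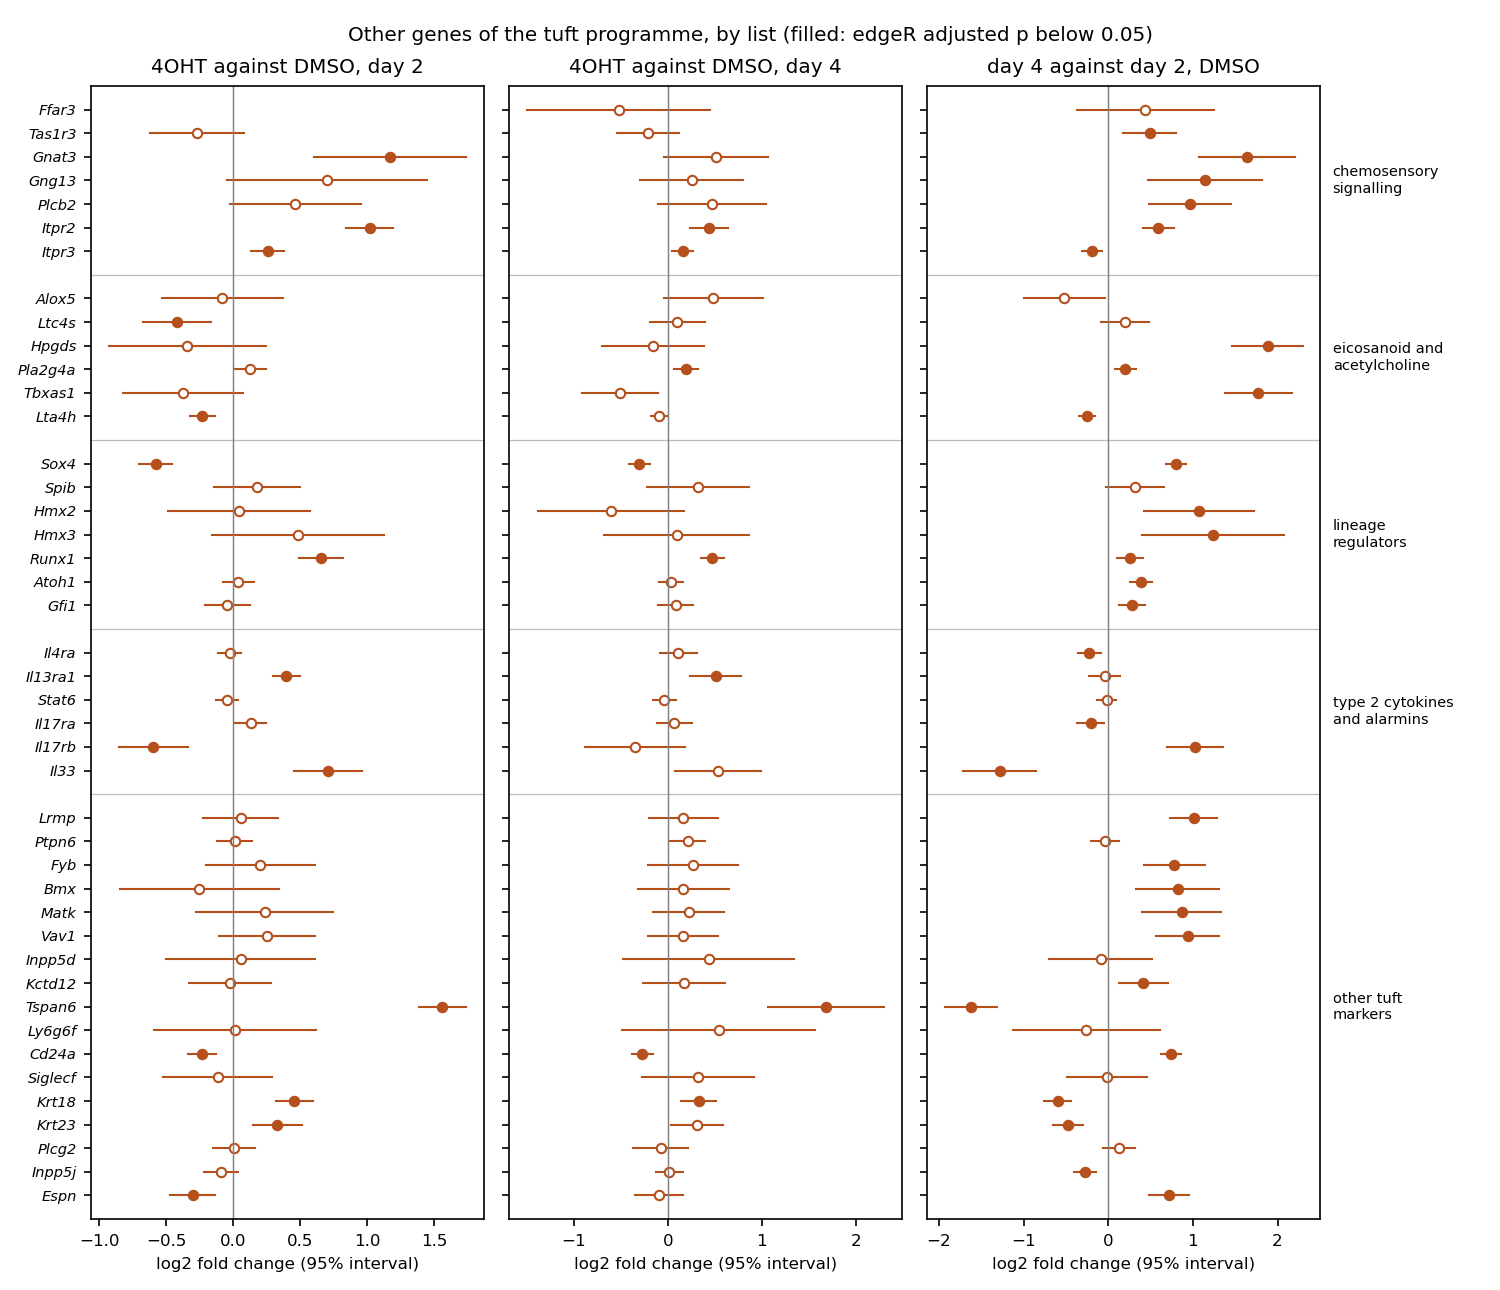
Log2 fold changes of other tuft programme genes by list, with 95% intervals; filled points have an edgeR adjusted p below 0.05. In the left and middle panels (4OHT against DMSO) Tspan6 lies farthest right, and in the right panel (day 4 against day 2 in DMSO) Hpgds, Tbxas1 and Gnat3 do while Tspan6 lies farthest left.

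The genes whose profiles over the 16 libraries were most like those of Pou2f3, Trpm5 and Dclk1 were sought among 16596 genes by the root mean square difference of log2 CPM, each gene centred on its own mean. For Dclk1 these were Kctd12 (0.179), Spib (0.180) and Cd200 (0.194), of which Kctd12 and Spib are in the tuft lists and all 3 mark tuft cells in the mouse gut. For Trpm5 they included Dixdc1 (0.156) and the tuft marker Lrmp (0.168). For Pou2f3 they were Ypel1 (0.146), Pipox (0.177) and Nrep (0.177). Among members, Pou2f3 ranked 45 and Rgs13 ranked 121 of 16596 in likeness to Trpm5, whereas Sh2d6 ranked 157 and Avil 267 in likeness to Dclk1, and Pou2f3 ranked 15176 there. These ranks are descriptions over libraries that share treatments, days and replicate numbers.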

How the data were processed

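The authors deposited a table per day with read counts per gene for 8 libraries, 16 normalized columns that were not used here, and their own log2 fold change and adjusted p-values from edgeR and DESeq, per the file headers. Per the submitters' processing notes, bcl2fastq 1.8.4, STAR 2.4.0f1 and GRCm38 were used; of the counting tool, annotation and strand setting nothing is given in the sources used here, so antisense overlaps are uncertain. Listed genes have at least 10 reads over 8 libraries. At day 4, 14 symbols rewritten as dates were restored from gene IDs.

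Tests on the counts used TMM, filterByExpr and robust quasi-likelihood fits in edgeR 4.0.16 (R 4.3.3, limma 3.58.1), with adjusted p below 0.05, in the 8 libraries of a comparison or all 16 for the interaction. Levels are CPM after joint TMM scaling over the genes of both tables, and RPKM uses exon unions of GENCODE M21 (GRCm38). Standard errors come from the F statistic. The fits were also run on simulated data, but the outcome is not given here and no result rests on it. Precision rests on library totals of 63.8 M to 93.3 M; reads carry no molecular identifiers, so intervals on counts cover counting error only.

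Alternatives were DESeq2 1.42.0, edgeR with the size factors of DESeq2, no filter, and at least 1 CPM in 4 libraries. Others were a 1.5-fold threshold as well, a fit over 16 libraries, the replicate number as a block, and leaving out each library. Same-numbered libraries deviated together at day 4 (correlations of deviations from group means 0.639 to 0.807, 8 of 8 libraries closest to their own number). Elsewhere only some numbers did. At day 2 the correlations were -0.113 to 0.476 (2 of 8 libraries closest to their own number). Between days they were 0.066 to 0.182 in DMSO (0 of 8) and -0.223 to 0.390 in 4OHT (4 of 8). So at day 4 the block is printed beside a result where it changes a call or a count. Leaving out a number within the block was added after seeing the data.

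The members and gene lists were chosen with earlier results of these data known. Every member is named. List genes are named where called in a treatment comparison, or where among the 2 highest in level, and others as said. Of the lists, Pou2af2, Pou2af3, Il13ra2 and Itprid1 were in neither table. A few genes that these rules would name are not reported here.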

Additional observations from a re-analysis of the deposited data

Results flagged for a closer look

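Among 40 combinations of a member and a group, 2 held a library that lay apart from the other 3 by Dixon's criterion for 4 samples, which chance gives in about 1 of 20 groups. Il25 in 4OHT day 4 replicate 2 was at 0.086 CPM, 7 reads, with the nearest library at 0.0135 CPM. Avil in 4OHT day 2 replicate 4 was at 2.68 CPM, with the others between 3.23 and 3.33 CPM; this value still lay above every DMSO library of day 2. Of the tuft programme lists, Itpr2 had a treatment difference that itself differed between days, by -0.57 (log2; edgeR adjusted p = 0.0281).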

How the results depend on the processing

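Of 730 alternative values for single members, 669 kept direction and side of the threshold, 19 lost a call, 14 gained one and 28 changed sign, none of a called result. Every sign change came from leaving out a library, with log2 ranges of -0.13 to 0.071 for Pou2f3, -0.059 to 0.27 for Rgs13 and -0.12 to 0.10 for Trpm5 at day 2; -0.12 to 0.071 for Pou2f3 (0.086 in the block without number 4), -0.35 to 0.071 for Sh2d6 and -0.010 (in the block without number 2) to 0.22 for Trpm5 at day 4; -0.27 to 0.076 for Ptgs1 and -0.028 to 0.35 for Sh2d6 over time in DMSO; and -0.26 to 0.12 for Dclk1, -0.10 to 0.13 for Pou2f3, -0.12 to 0.30 for Sh2d6 and -0.018 to 0.21 for Trpm5 in the interaction. The call of Avil at day 2 held in all alternatives run (edgeR or DESeq2 adjusted p at most 0.00769).

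At day 4 the 3 members called became 5 with the replicate block (Gfi1b, which passed the filter through one group, among them), 0 with at least 1 CPM in 4 libraries (Avil at an adjusted p of 0.0516, Alox5ap and Ptgs1 no longer tested), and 0 to 5 when a library or number was left out. DESeq2 called Rgs13 too, with an adjusted p of 0.0317. Over all genes, requiring 1.5-fold as well gave 1391 calls at day 2, 1266 at day 4, 3148 over time in DMSO, 2857 in 4OHT and 133 in the interaction, by construction fewer. The block gave 7216 at day 4, and within it 6069 without number 1, 6003 without number 2 and 7383 without number 4; leaving out a library gave 3001 at the lowest. For the interaction DESeq2 gave 847, the replicate block within day 1850, and leaving out a library 94 to 727; the cause was not tested. Over time, the 1.5-fold threshold ended the calls of Dclk1 in DMSO and Avil in 4OHT. Outside day 4 the block follows no pairing shared by all numbers. In it, Alox5ap over time in DMSO (edgeR adjusted p = 0.0331) and Ptgs1 in 4OHT (0.0269) were called, and day 2 kept its 1 member call. Depth limits Il25 and Gfi1b, at 0 to 7 and 3 to 22 reads per library.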
